A study of Mus musculus with 10 samples.

Results

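The genes described here are the molecular chaperones of the HSP, DNAJ and CCT families, measured by bulk RNA-seq in whole mouse embryos. They were chosen by gene symbol alone: HSPA, HSPB, HSPD, HSPE, HSPH and HSP90 genes, J proteins of the DNAJA, DNAJB and DNAJC groups, and subunits 2 to 8 of the chaperonin CCT. The rule found 87 of the 20006 genes listed. Of these, 9 are pseudogenes by symbol and 78 (4 of the pseudogenes among them) had a mean of at least 10 scaled counts and were tested. The groups were 5 embryos mutant for Axin1 and Axin2 (genotype label Axin1;Axin2 mutant, column label DKO) and 5 WT embryos, all collected at embryonic day 7.5, with 1 library per embryo. The labels do not state how the alleles were made, nor the strain, litter or sex of the embryos. AXIN1 and AXIN2 are scaffolds on which β-catenin, the effector of canonical Wnt signalling, is phosphorylated for degradation. The comparison asks how gene expression differs when both genes are mutated.

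Chaperones bind unfolded stretches of other proteins and keep them from aggregating. HSP70 proteins work in cycles of ATP hydrolysis that J proteins (DNAJ) start and nucleotide exchange factors end, HSP90 proteins act later on kinases, receptors and other clients, and the chaperonins HSP60 with HSP10 (mitochondria) and CCT (cytosol, for actin and tubulin among others) fold proteins inside a closed chamber. The endoplasmic reticulum has its own HSP70, HSP90 and J proteins, whose genes respond to the unfolded protein response, whereas the heat-inducible genes of the cytosol respond to heat shock factor HSF1. The early embryo expresses many chaperones at high levels without heat shock.

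The levels below are scaled counts, read counts divided by 1 size factor per embryo. Libraries held 20744547 to 28505209 reads, and the totals did not differ between the genotypes (two-sided exact permutation p = 0.746). Axin1 had 1319, 1134, 1108, 2336 and 819.5 scaled counts in mutants 1 to 5, against 3314 to 3843 in WT embryos. Axin1 was lower (log2 fold change −1.49, SE 0.21, limma adjusted p = 0.000614). Axin2 had 349 to 603 scaled counts in mutants and 395 to 485 in WT embryos (adjusted p = 0.981), and counts over a whole gene do not check a deletion of part of it. The library labelled mutant 4 had the highest Axin1 level of the mutants and correlated less with the other mutants across genes (0.933 to 0.944) than those did among themselves (0.958 to 0.974; genes are not independent replicates). Its correlation with WT embryos was 0.916 to 0.936, and that of the other mutants with WT embryos 0.892 to 0.934. On the first principal component (47.7% of the variance), mutant 4 lay at −16.6, the other mutants at −78.4 to −62.3 and WT embryos at 51.8 to 73.3. The labelled tissue was checked against marker lists: WT embryos held transcripts of epiblast, primitive streak, visceral endoderm, trophoblast, allantois and blood progenitors. Epiblast markers summed to 13910 to 17852 scaled counts in mutants and 39384 to 53997 in WT embryos (5 of 6 genes lower). Markers of maternal decidua were also present, at summed levels of 4139 to 19493 scaled counts in mutants and 1560 to 2267 in WT embryos (3 of 9 genes higher, none lower). The decidua list was Prl8a2, Dcn, Pgr, Hand2, Wnt4, Col1a1, Acta2, Des and Prlr. Hand2 also stands in the list of early heart genes used here, so this sum need not come from maternal cells alone. Allantois and extra-embryonic mesoderm markers summed to 19680 to 31191 in mutants and 13903 to 18926 in WT embryos (5 of 9 genes higher). Blood progenitor markers summed to 5844 to 10275 in mutants and 1920 to 3240 in WT embryos (4 of 9 genes higher). Of 7 primitive streak and nascent mesoderm markers, 2 were higher and 4 lower. Libraries also differed in how the level of a gene depended on the GC content of its transcript. Across 10862 genes, the correlation of a gene's deviation in 1 library with GC content was −0.37 to −0.06 in mutants, and 0.61, 0.36, 0.25, −0.10 and −0.26 in WT 2, WT 5, WT 1, WT 4 and WT 3. The median log2 fold change of all genes, mutant over WT, was accordingly 0.44 for transcripts under 40% GC and −0.15 for those of 55% GC and over. For this reason, values after removal of each library's GC trend (an alternative chosen after seeing the data, called GC correction here) stand beside the main values of called genes whose call they change or whose printed value they move by over 1.5 times, and beside some others.

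Of the 78 tested chaperone genes, 18 (23.1%) passed the threshold (limma on log2 values, Benjamini-Hochberg adjusted p under 0.05), with 12 higher and 6 lower in mutants. Among all 15429 genes tested, 25.1% passed, 11.4% as higher and 13.8% as lower, so the share of chaperones that passed was near that of all genes. Levels of the 5 mutants and the 5 WT embryos did not overlap for 13 chaperone genes, 9 higher and 4 lower, against 17.1% of all genes tested (7.14% with mutants higher and 9.97% with mutants lower). Without WT 5, 7 chaperone genes were higher, and 2505 of all genes passed, against 3877 with all embryos. The median log2 fold change was 0.12 for the chaperones and 0.01 for all genes. After GC correction, 14 chaperone genes passed, 10 higher and 4 lower, against 27% of all genes, and their median was 0.07 against 0.01 for all genes. Transcripts under 50% GC made up 10 of the 12 chaperone genes that were higher, and 50 of the 78 tested. Among all genes, they made up 1224 of the 1754 that were higher, and 7701 of the 15429 tested.

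**Figure D1:**
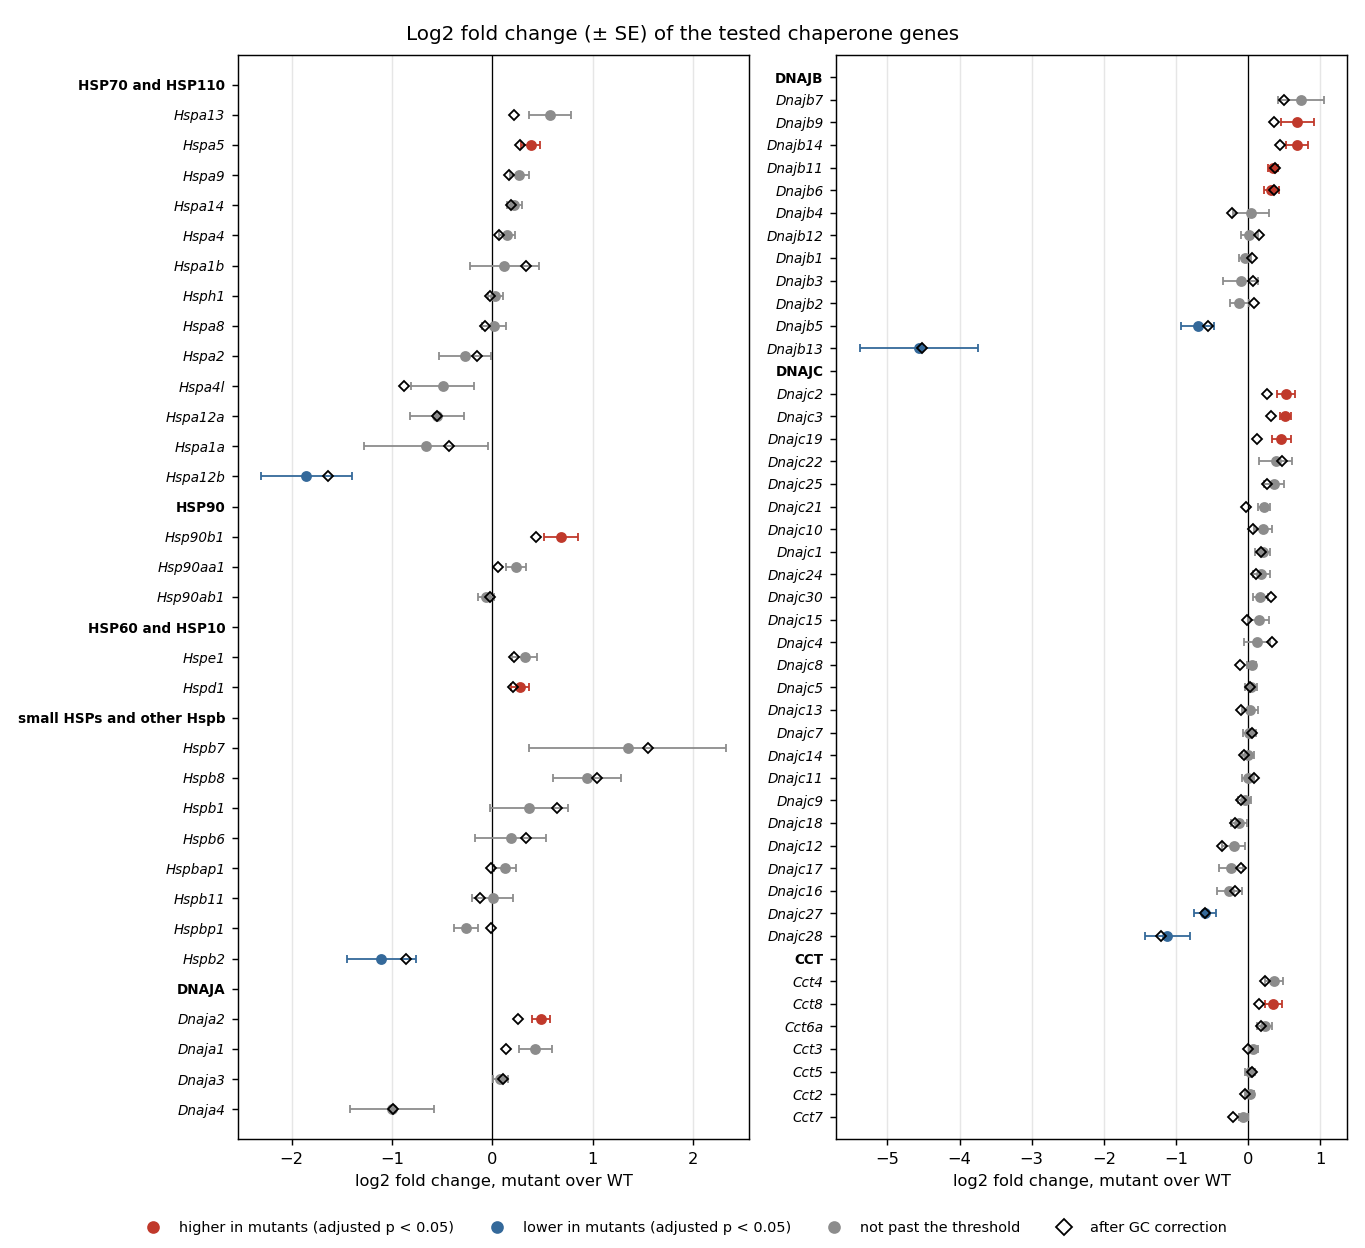
Log2 fold change (mutant over WT) with its standard error for each tested chaperone gene that is not a pseudogene, by family. Filled points are coloured by the limma test (n = 5 embryos per group) and open diamonds give the value after GC correction. Dnajb13 lies lowest at −4.56 and most diamonds of genes with positive values lie closer to 0 than their points.

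By the compartment in which the protein works, of 13 tested members of the endoplasmic reticulum, 6 were higher and none lower (median log2 fold change 0.36). Of 37 members of the cytosol and nucleus, 4 were higher and 2 lower (median 0.03), and of 10 members of the mitochondrion, 2 were higher and 1 lower (median 0.16). Compartments were assigned from general knowledge. The 18 tested members left without a compartment, pseudogenes among them, held none that was higher and 3 that were lower (median 0.08). Among all genes tested, 11.4% were higher and 13.8% lower (median 0.01). The difference between compartments was not tested. By family, 4 of 12 DNAJB genes were higher and 2 lower, 3 of 25 DNAJC genes were higher and 2 lower, and in the HSP70 and HSP110 family 1 of 14 was higher and 1 lower. The HSP90, DNAJA and CCT families and the HSP60 and HSP10 group each had 1 gene that was higher and none that was lower. The small HSPs, grouped with other genes of an Hspb symbol, had 1 that was lower. In all, 11 genes kept their call and direction with GC correction, with GC and length correction, in edgeR, in DESeq2 and without mutant 4. Of these, 8 were higher (Hspa5, Hsp90b1, Dnajb11, Dnajb14, Dnajc3, Dnaja2, Dnajb6 and Dnajc2) and 3 lower (Dnajb13, Dnajc27 and Dnajc28).

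The members of the endoplasmic reticulum are described first, and with them the promoter elements that some of their genes carry. The unfolded protein response acts through elements of which the best known is the endoplasmic reticulum stress element, searched here on both strands as CCAAT, any 9 bases and CCACG. The RefSeq promoter windows (build GRCm38.p6, 250 bases before to 50 after a start) were at hand for 64 of the 78 chaperone genes that are not pseudogenes. The element stood in the windows of 3 chaperone genes, Hspa5, Hsp90b1 and Dnajc3, all among the 11 endoplasmic reticulum members with a window, and in 0.137% of the windows of 27025 genes. The related element II (ATTGG, any base and CCACG) stood in Dnajb11 and in 0.0444% of all windows. A match is a description of letters, not of binding. The stretches below are shown because these 4 genes were among those higher in mutants; capitals mark the elements, read 5′ to 3′ on the strand of the gene.
Hspa5, chr2:34772020-34772048, plus strand: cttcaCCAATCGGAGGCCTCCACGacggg
Hsp90b1, chr10:86705518-86705671, minus strand: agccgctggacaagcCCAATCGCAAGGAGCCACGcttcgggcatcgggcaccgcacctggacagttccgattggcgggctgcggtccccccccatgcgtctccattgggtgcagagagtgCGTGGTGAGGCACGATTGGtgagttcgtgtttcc
Dnajc3, chr14:118937797-118937875, plus strand: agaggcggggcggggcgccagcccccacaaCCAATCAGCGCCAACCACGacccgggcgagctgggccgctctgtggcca
Dnajb11, chr16:22857844-22857870, plus strand: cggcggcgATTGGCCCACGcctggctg
Hsp90b1 holds 2 copies in opposite orientation. Of the 19 tested genes with the stress element in a window, 5 were higher and 2 lower in mutants. The 5 include Hspa5, Hsp90b1 and Dnajc3, which were shown because they were higher. Of 9 tested genes with element II, Dnajb11 among them, 2 were higher and 1 lower. An ATF6-type element (TGACGTGG), also searched, stood in 1 chaperone gene, Dnajc25, which did not pass (log2 fold change 0.36, limma adjusted p = 0.0766). It stood in 0.714% of all windows, and of 122 tested genes with it 18 were higher and 15 lower. Of all genes tested, 11.4% were higher and 13.8% lower.

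Hspa5 encodes BiP, the HSP70 of the endoplasmic reticulum lumen (ENSMUSG00000026864.13, chromosome 2, 34771970 to 34777547, plus strand, mm10). It had 44072, 47465, 40732, 48577 and 46414 scaled counts in mutants 1 to 5, against 32814, 29644, 40749.5, 38468 and 33379 in WT embryos 1 to 5. Mutants 1, 2, 4 and 5 lay above every WT embryo, and mutant 3 lay just below WT 3. The gene was higher in mutants by 0.38 on the log2 scale (SE 0.09, limma adjusted p = 0.0116, n = 5 per group). In bulk samples, a change in the share of cells that express a gene and a change in RNA per cell cannot be told apart.

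Hsp90b1 encodes GRP94, the HSP90 of the same lumen (ENSMUSG00000020048.13, chromosome 10, 86690209 to 86705509, minus strand). Mutants had 36657, 40731, 34113, 36967 and 34778 scaled counts, against 22146, 15235, 32133, 28797 and 19269.8 in WT embryos. The groups did not overlap, and WT embryos were far more spread (SD 6903) than mutants (SD 2583). The log2 fold change was 0.69 (SE 0.17, adjusted p = 0.0121), and 0.44 after GC correction (adjusted p = 0.00219). Exons of Hsp90b1 overlap those of 1810014B01Rik on the opposite strand, which had a mean of 138 scaled counts in mutants and 139 in WT embryos.

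Of the J proteins of this compartment, Dnajb11, Dnajc3, Dnajb14 and Dnajb9 were higher and the other 6 did not pass. Dnajb11 (chromosome 16, 22857845 to 22879634, plus strand), an abundant lumenal partner of BiP, had 6577, 6535, 6537, 5869 and 6612 scaled counts in mutants and 5265, 5102, 4852, 4991 and 5045 in WT embryos. The groups did not overlap, and the log2 fold change was 0.35 (SE 0.07, adjusted p = 0.00299). Its transcript is 50.5% GC, a range in which the median of all genes was −0.04, and its log2 fold change after GC correction was 0.38. Dnajc3 (chromosome 14, 118937976 to 118981697, plus strand), which also restrains kinases of the translation factor eIF2α, had 4185, 4971, 5001.4, 5151 and 5078 scaled counts in mutants and 3404, 3539, 3636, 3368 and 3090.4 in WT embryos. Every mutant lay above every WT embryo (log2 fold change 0.52, SE 0.08, adjusted p = 0.0011; after GC correction 0.32, adjusted p = 0.0344).

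Dnajb14, a J protein of the endoplasmic reticulum membrane, was also higher without overlap. It had 367, 352, 550.0, 487 and 432 scaled counts in mutants, against 269, 242, 320.2, 259 and 263 in WT embryos (log2 fold change 0.68, SE 0.15, adjusted p = 0.00763; after GC correction 0.44, adjusted p = 0.0487; after GC correction without mutant 4 0.41, adjusted p = 0.071). Dnajb9, a lumenal J protein that serves degradation and holds the stress sensor IRE1 in check, passed narrowly and was named after its values were seen. It had 253, 254, 245, 328 and 175 scaled counts in mutants and 167, 104, 221, 171 and 129 in WT embryos (log2 fold change 0.68, SE 0.23, adjusted p = 0.0457). The call of Dnajb9 was lost after GC correction (0.35, adjusted p = 0.114), in edgeR (adjusted p = 0.0543) and on leaving out any 1 of 8 libraries, all but WT 3 and mutant 5 (adjusted p = 0.0596 to 0.112). Hspa13, a second HSP70 of the lumen, had 875 to 1278 scaled counts in mutants and 514 to 1124 in WT embryos and did not pass (log2 fold change 0.58, adjusted p = 0.0631; without WT 3 0.74, adjusted p = 0.013; after GC correction 0.21, adjusted p = 0.164). The remaining 6 members did not pass either, among them Dnajc10, a reductase of disulfide bonds (log2 fold change 0.20, adjusted p = 0.263; after GC correction 0.07, adjusted p = 0.609). After GC correction, 5 of the 13 members were higher and the median log2 fold change was 0.25.

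**Figure D2:**
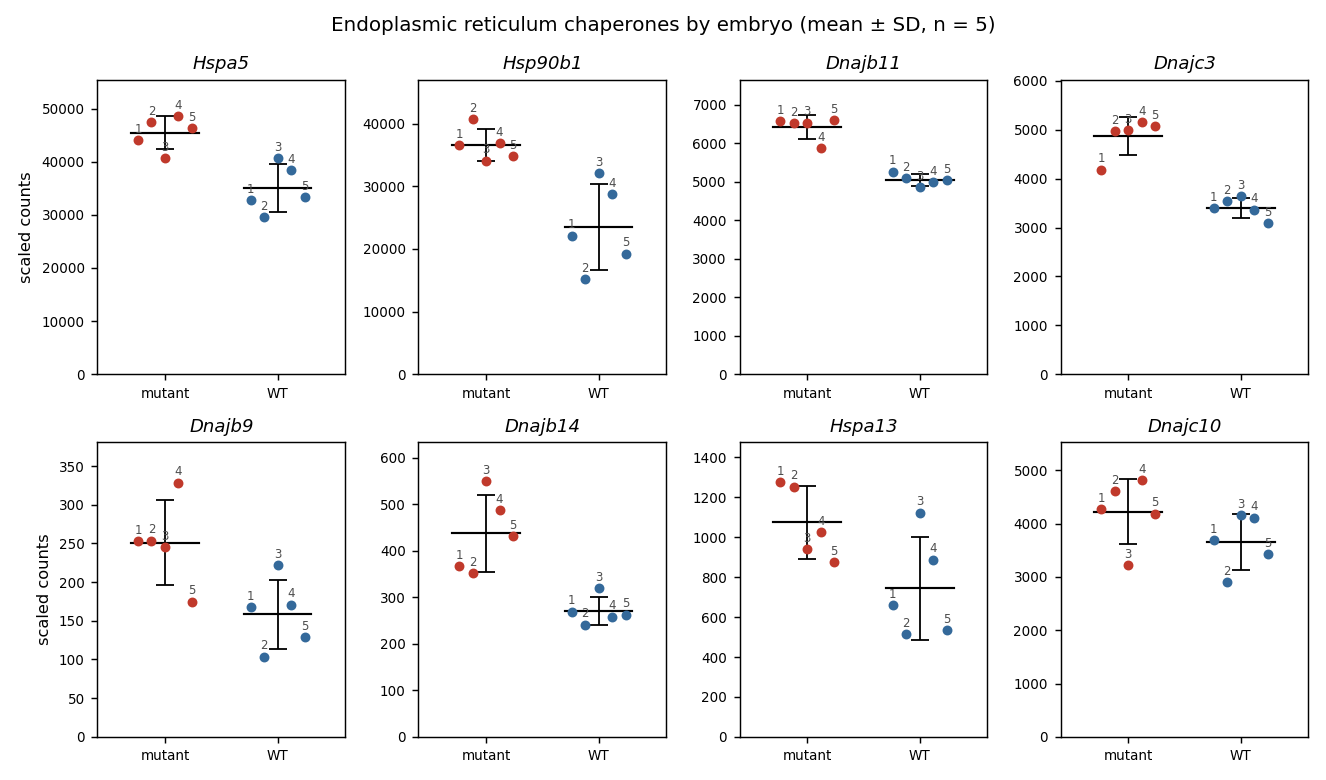
Scaled counts of 8 chaperone genes of the endoplasmic reticulum in each embryo, mutants at the left (red) and WT at the right (blue), with the mean and SD (n = 5 each). Numbers beside points are replicate numbers. The groups do not overlap for Hsp90b1, Dnajb11, Dnajc3 and Dnajb14, and WT 3 is the highest WT embryo in 7 of the panels.

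The same compartment holds folding enzymes and regulators outside the chaperone families. Of 34 tested genes in a list of endoplasmic reticulum folding and unfolded protein response genes, 9 were higher and 1 lower in mutants (14 higher and 1 lower after GC correction), with a median log2 fold change of 0.21. Of the list, 29.4% passed, against 25.1% of all genes tested. As higher, 11.4% of all genes passed, and 12.3% after GC correction. The summed level of the list was 223888 to 229524 scaled counts in mutants, against 179150 to 193046 in WT embryos, without overlap. Asns, the asparagine synthetase that the transcription factor ATF4 induces, had 6177 to 9063 scaled counts in mutants and 2829 to 3456 in WT embryos (log2 fold change 1.37, SE 0.11, adjusted p = 1.36e-05). Xbp1, a transcription factor of the unfolded protein response, had 5797 to 6758 scaled counts in mutants and 4273 to 4439 in WT embryos (log2 fold change 0.50, SE 0.07, adjusted p = 0.000459). Ppib, the cyclophilin of the lumen, had 4855.6 to 5893.9 scaled counts in mutants and 3295.4 to 4406.8 in WT embryos (log2 fold change 0.47, SE 0.09, adjusted p = 0.00294). The other genes that were higher were P4hb, Pdia3, Calr, Manf, Herpud1 and Chac1, and Atf6b was lower (−0.49, adjusted p = 0.0132; after GC correction −0.23, adjusted p = 0.0442). Herpud1 did not pass in edgeR (adjusted p = 0.0542). Ddit3, the stress-induced factor CHOP, had a log2 fold change of 0.20 (adjusted p = 0.51), and the nucleotide exchange factor Hyou1 one of −0.12 (adjusted p = 0.778).

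Marker lists of secretory and maternal tissue differed among themselves. Of 10 visceral endoderm markers, 3 were higher and none lower, and their summed level was 168184, 172553, 163281, 93355 and 162549 scaled counts in mutants 1 to 5, against 108673 to 151370 in WT embryos. The lowest sum was that of mutant 4, which had the highest Hspa5 level. The summed decidua markers, given above, did not overlap between the groups, with mutants higher. Of 7 parietal endoderm markers, none was higher and 1 lower, with sums of 23897 to 40013 scaled counts in mutants and 24185 to 44611 in WT embryos. Of 8 tested maternal blood and immune markers, 3 were higher and none lower, while the sum over the list was 2494 to 10831 scaled counts in mutants (median 4335) and 3926 to 17029 in WT embryos (median 7813). The part of these tissues in the levels of the endoplasmic reticulum chaperones was not tested.

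In the cytosol, the most abundant HSP90 and HSP70 genes did not pass the threshold. Per kilobase of exon, Hsp90ab1 had the highest level of all chaperones, with means of 25942 scaled counts per kilobase in mutants and 27045 in WT embryos, followed by Hspa8 with 16427 in mutants and 16045 in WT embryos and Hspd1 with 14870 in mutants and 12376 in WT embryos. Hsp90ab1, the constitutive HSP90, had 67119 to 84029.7 scaled counts in mutants and 76261 to 85202 in WT embryos (log2 fold change −0.06, unadjusted 95% interval −0.23 to 0.10). Hspa8, the constitutive HSP70, had 88598, 75529, 54626, 63765 and 70743 scaled counts in mutants and 58713, 67459.9, 73023, 71855 and 73996 in WT embryos, and its interval was −0.24 to 0.28 around 0.02. Mutants both topped and bottomed the WT range. Hsp90aa1, the inducible HSP90, had 40376 to 49029 scaled counts in mutants and 31234 to 41562 in WT embryos (log2 fold change 0.24, adjusted p = 0.101; after GC correction 0.06, adjusted p = 0.52). Hsph1, an HSP110 that acts as a nucleotide exchange factor, had a log2 fold change of 0.03 (interval −0.13 to 0.19), and Hspbp1, another exchange factor, one of −0.27 (adjusted p = 0.124; without WT 3 −0.34, adjusted p = 0.0457; after GC correction −0.02). Together, the 87 genes took 2.49% to 2.68% of the reads in mutants and 2.18% to 2.60% in WT embryos.

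Of 19 tested genes in a list of HSF1 targets and heat-inducible genes, 2 were higher and 1 lower, with a median log2 fold change of 0.11. The share that passed was 15.8%, against 25.1% of all genes tested. The genes that passed were Serpinh1, a collagen chaperone (log2 fold change 0.85, SE 0.12, adjusted p = 0.000658), Hspd1, and Fkbp4, an HSP90 partner that was lower (−0.35, SE 0.08, adjusted p = 0.00896; after GC correction −0.18, adjusted p = 0.112). Dnajb1, the most inducible J protein, had 3569 to 4184 scaled counts in mutants and 3568 to 4270.2 in WT embryos (log2 fold change −0.04, interval −0.21 to 0.13). Hsf1 itself had a log2 fold change of −0.13 (adjusted p = 0.469).

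The strictly inducible Hspa1a and Hspa1b are near-identical copies on chromosome 17, and reads may be split between them. Hspa1a had 209, 23.9, 35.8, 17.2 and 16.1 scaled counts in mutants and 35.9, 115, 55.6, 51.5 and 46.0 in WT embryos. Hspa1b had 400.1, 101, 159, 181 and 101 scaled counts in mutants and 120.4, 219, 159, 138 and 133 in WT embryos. Mutant 1 stood far above the other mutants for both copies. Summed over the copies, mutants averaged 249 ± 205 scaled counts and WT embryos 215 ± 69.9 (SD, n = 5 each; two-sided exact permutation p = 0.921, where the smallest possible p is 0.00794). The log2 ratio of the group means was 0.21, and without mutant 1 it was −0.44 (exact permutation p = 0.198). Hspa1a alone passed as lower without mutant 1 (−1.30, adjusted p = 0.036) but not with all embryos (−0.66, adjusted p = 0.463; after GC correction −0.43, adjusted p = 0.643). In edgeR the log2 fold change of Hspa1a with all embryos was −0.006 (adjusted p = 0.997). Among immediate early genes, which also respond to handling, 6 of 13 were higher and none lower (11.4% of all genes tested were higher), led by Egr1 (169 to 353 scaled counts in mutants and 36.3 to 76.0 in WT embryos). The summed level of the list was 12372, 10859, 14381, 15538 and 11365 scaled counts in mutants 1 to 5, against 8043 to 11412 in WT embryos. The part of handling in the levels of the inducible copies was not tested.

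The mitochondrial chaperonin showed small differences at the threshold. Hspd1, which encodes HSP60 (chromosome 1, 55077835 to 55088243, minus strand), had 40252, 39634, 39310.0, 40050.3 and 37184 scaled counts in mutants and 34182, 26323, 37249.7, 35869 and 29861 in WT embryos. Mutants clustered within a narrow range, and all but mutant 5 lay above every WT embryo. Its log2 fold change was 0.28 (SE 0.09, adjusted p = 0.0491). This call was lost after GC correction (0.21, adjusted p = 0.051), in edgeR (adjusted p = 0.0567) and without any 1 of 8 libraries, all but WT 3 and WT 4 (adjusted p = 0.0638 to 0.125). Hspe1, which encodes the lid HSP10, had 8862 to 12474 scaled counts in mutants and 7013 to 10390.1 in WT embryos (log2 fold change 0.32, adjusted p = 0.0705; without WT 1 adjusted p = 0.0247; without mutant 4 adjusted p = 0.0419; after GC correction 0.21, adjusted p = 0.223), and Hspa9, the mitochondrial HSP70, had 21928 to 23733 in mutants and 15105 to 22115 in WT embryos (0.27, adjusted p = 0.058; without WT 3 0.33, adjusted p = 0.0224; DESeq2 adjusted p = 0.0495; after GC correction 0.17, adjusted p = 0.0666; after GC and length correction 0.13, adjusted p = 0.171). Hspd1 and Hspe1 are transcribed head to head from a shared promoter that holds 2 overlapping matches, on opposite strands, to a heat shock element (GAA, any 2 bases, TTC, any 2 bases and GAA). The stretch is shown because 1 promoter serves both subunits; capitals mark the overlapping matches.
Hspe1, chr1:55088053-55088082, plus strand: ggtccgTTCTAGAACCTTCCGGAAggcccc
This element stood in the windows of 4 chaperone genes, Dnajb6 and Hsph1 beside the pair, and in 0.662% of the windows of all genes. Of 61 tested genes that hold it, 9 were higher and 10 lower, where 11.4% of all genes tested were higher and 13.8% lower.

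Among other mitochondrial members, Dnajc19, a J protein of the import motor, had 1125 to 1616 scaled counts in mutants and 819 to 1178 in WT embryos (log2 fold change 0.46, SE 0.13, adjusted p = 0.0232). Its exons overlap Fxr1 on the opposite strand. Its transcript is 40.3% GC, a range in which the median of all genes was 0.23. After GC correction the value was 0.12 (adjusted p = 0.677), after GC and length correction −0.02, and the call was also lost without WT 5 (0.41, adjusted p = 0.0658) and without mutant 2 (0.38, adjusted p = 0.0572). Dnajc28, a little-studied J protein, was lower: mutants had 17.0, 22.0, 15.7, 15.2 and 25.6 scaled counts, against 27.6, 34.2, 67.0, 50.5 and 40.4 in WT embryos. The groups did not overlap (log2 fold change −1.12, SE 0.31, adjusted p = 0.0212), at a depth of 97 reads over the mutants and 219 over the WT embryos. In a list of 18 mitochondrial proteostasis genes outside the families, 3 were higher and 1 lower, and 1 was higher after GC correction. Of the list, 22.2% passed, against 25.1% of all genes tested. The protease Lonp1 was lower (−0.33, adjusted p = 0.0203; after GC correction −0.14, adjusted p = 0.127; without WT 5 −0.29, adjusted p = 0.0602; without mutant 2 −0.28, adjusted p = 0.0502). The peptidase subunit Pmpcb was higher (0.31, adjusted p = 0.0205; after GC correction 0.13, adjusted p = 0.274; without mutant 2 0.27, adjusted p = 0.0513). The import receptor Tomm20 was higher as well (0.32, adjusted p = 0.0435), and lost its call after GC correction (adjusted p = 0.268) and without any 1 of 7 libraries, all but WT 1, WT 2 and mutant 4 (adjusted p = 0.074 to 0.115).

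Among J proteins of the cytosol and nucleus, Dnaja2, Dnajc2 and Dnajb6 were higher in mutants and Dnajc27 and Dnajb5 lower. Dnaja2, a general partner of Hspa8 (chromosome 8, 85537633 to 85555344, minus strand), had 9493, 10129.5, 9796, 9482 and 9247 scaled counts in mutants and 6997, 5840.2, 7875, 7525 and 6307 in WT embryos. Every mutant lay above every WT embryo (log2 fold change 0.49, SE 0.09, adjusted p = 0.00225; after GC correction 0.26, adjusted p = 0.00515). Its relative Dnaja1 had 9011 to 11797 scaled counts in mutants and 5026 to 10148 in WT embryos and did not pass (0.43, adjusted p = 0.0771; without WT 3 0.54, adjusted p = 0.023; without WT 4 0.51, adjusted p = 0.0498; after GC correction 0.13, adjusted p = 0.165).

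Dnajc2, a J protein that works at the ribosome, had 4314, 5109, 4783, 4155 and 3735 scaled counts in mutants and 3315, 2435, 3589.5, 3424 and 2634 in WT embryos. The groups did not overlap (log2 fold change 0.53, SE 0.13, adjusted p = 0.01; after GC correction 0.26, adjusted p = 0.0275). Its HSP70 partner at the ribosome, Hspa14, had 5920.4 to 7331 scaled counts in mutants and 5315 to 6197 in WT embryos and did not pass (0.22, adjusted p = 0.0567; without mutant 4 0.26, adjusted p = 0.0256). Hspa14 is uncertain, since the annotation used here gives its identifier another name and an overlapping gene the name Hspa14. Dnajb6, which suppresses protein aggregation, had 3282 to 3970.4 scaled counts in mutants and 2335 to 3259 in WT embryos, without overlap (0.32, SE 0.10, adjusted p = 0.0398). Its call was lost without any 1 of 6 libraries, WT 1, WT 2, WT 5 and mutants 1 to 3 (adjusted p = 0.0582 to 0.0958), but not after GC correction (0.36, adjusted p = 0.0395).

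Dnajc27, a small GTPase with a J domain, was lower in mutants (276.5, 273, 242, 398 and 365 scaled counts) than in WT embryos (466, 429.7, 451, 490.0 and 485). Its log2 fold change was −0.60 (SE 0.15, adjusted p = 0.0135). Mutants 4 and 5 lay closest to the WT range, which no mutant entered. Dnajb5, a J protein of the cytosol, had 77.3 to 159 scaled counts in mutants and 135 to 249.7 in WT embryos (−0.70, SE 0.23, adjusted p = 0.0442). That call was lost after GC correction (−0.56, adjusted p = 0.114), in edgeR (adjusted p = 0.0541) and without any 1 of 8 libraries, all but WT 2 and mutant 2 (adjusted p = 0.053 to 0.12). Dnajc8, the DNAJC gene with the highest level per kilobase and a protein associated with splicing, had a log2 fold change of 0.05 (adjusted p = 0.629), which turned to −0.31 after GC and length correction (adjusted p = 0.0111).

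The largest difference among the chaperones was that of Dnajb13, a J protein of the radial spokes of motile cilia and sperm tails (chromosome 7, 100501716 to 100514960, minus strand). Mutants had 0.944, 0, 0, 24.3 and 0 scaled counts, against 37.6, 30.2, 69.3, 55.6 and 75.1 in WT embryos, or 25 and 271 reads in all. Mutant 4 held 24 of the 25 mutant reads. The log2 fold change was −4.56 (SE 0.82, adjusted p = 0.00225). It was −3.39 in edgeR (adjusted p = 0.0329) and −3.41 in DESeq2 (adjusted p = 0.0105). Since mutants 2, 3 and 5 had no read, the fold depends on the pseudocount and ran from −5.24 to −2.92 with pseudocounts of 0.5 and 5. Exons of Ucp2 overlap Dnajb13 on the opposite strand, and with an unstranded kit reads of these genes cannot be told apart in the overlap. Ucp2 was lower in mutants too (1156 to 2649 scaled counts, against 2077 to 3854 in WT embryos; −0.64, adjusted p = 0.0483; after GC correction −0.48, adjusted p = 0.129). Other genes of motile cilia, which at this stage form at the node, were lower with it: 13 of 15 tested, and none higher, with a median log2 fold change of −2.74. Of all genes tested, 13.8% were lower. Foxj1, the regulator of motile cilia, had 12.3 to 67.7 scaled counts in mutants and 548 to 774 in WT embryos (−4.49, SE 0.37, adjusted p = 1.36e-05). Tekt2 and Ccdc40 passed as well (−3.19 and −2.08). The summed level of the list was 373 to 614 scaled counts in mutants, highest in mutant 4, and 1427 to 2366 in WT embryos.

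Hspa12b, a distant HSP70 relative found mainly in endothelium (chromosome 2, 131127280 to 131146321, plus strand), had 39.6, 28.7, 44.8, 202 and 33.2 scaled counts in mutants, against 172, 241, 146, 159.6 and 238 in WT embryos. Only mutant 4 lay within the WT range, and the other mutants lay far below it. The log2 fold change was −1.85 (SE 0.45, adjusted p = 0.0113), and edgeR gave an adjusted p of 0.0569. Without mutant 4 the log2 fold change was −2.34 (adjusted p = 3.27e-05). Endothelium markers did not fall with it: 1 of 5 was higher and none lower, and their summed level was 2561, 2041, 2143, 8478 and 2507 scaled counts in mutants 1 to 5, against 1510 to 2055 in WT embryos. Mutant 4 was highest in both. The part of endothelial cells in Hspa12b was not tested.

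**Figure D3:**
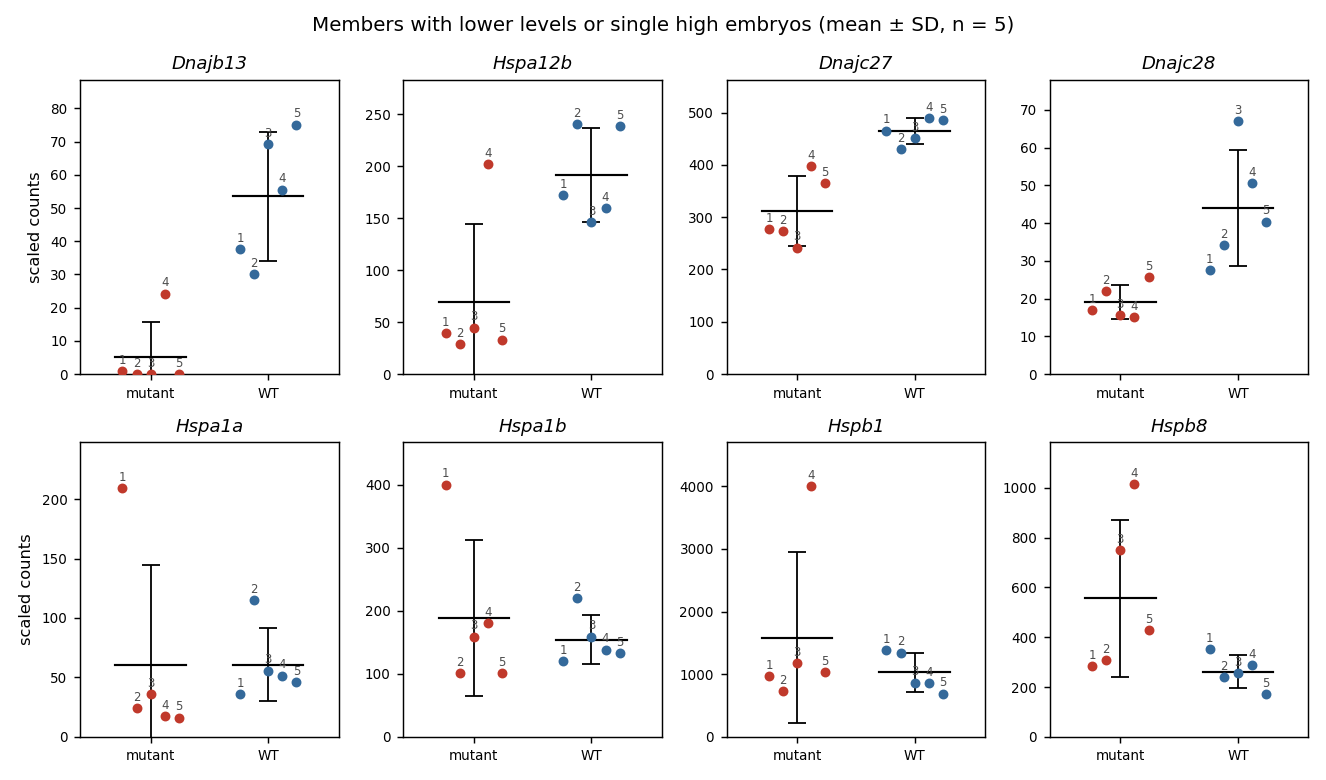
Scaled counts in each embryo, mutants at the left (red) and WT at the right (blue), with the mean and SD (n = 5 each), for 4 chaperone genes that were lower in mutants (top) and for Hspa1a, Hspa1b, Hspb1 and Hspb8 (bottom). Mutant 4 stands above the other mutants for Dnajb13, Hspa12b and Hspb1, and mutant 1 for Hspa1a and Hspa1b. For Hspb8, mutants 3 and 4 are the highest.

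Small HSPs hold unfolded proteins without ATP, and of 8 tested genes with an Hspb symbol 1 passed. Not all genes with such a symbol are small HSPs, as Hspbp1, given above, is an exchange factor. Hspb1 had 971, 725, 1179.5, 4007 and 1030.4 scaled counts in mutants and 1388, 1346, 866, 855 and 691 in WT embryos (log2 fold change 0.37, adjusted p = 0.518; without mutant 4 −0.043, adjusted p = 0.902; after GC correction 0.65, adjusted p = 0.184). Mutant 4 lay far above every other embryo, and the remaining mutants lay within or near the WT range. Hspb8 had 285, 308, 749, 1014 and 427 scaled counts in mutants and 351, 241, 257, 287 and 172 in WT embryos (0.95, SE 0.34, adjusted p = 0.0573), and it passed after GC correction (1.05, adjusted p = 0.0336), in edgeR (adjusted p = 0.0408) and without mutant 1 (1.14, adjusted p = 0.033) or mutant 2 (1.11, adjusted p = 0.043). Mutants 3 and 4 were the highest for Hspb8 and for the decidua markers, which summed to 6389, 4139, 19493, 8680 and 6675 scaled counts in mutants 1 to 5. Their part in Hspb8 was not tested. Hspb2, a small HSP known from muscle, was lower, at 7.55 to 11.4 scaled counts in mutants and 14.8 to 32.2 in WT embryos (−1.11, SE 0.34, adjusted p = 0.0334). It rests on 48 reads over the mutants and 115 over the WT embryos, and its exons overlap Cryab on the opposite strand. The call was lost after GC correction (−0.86, adjusted p = 0.0617) and without any 1 of 6 libraries, WT 2, WT 4, WT 5 and mutants 1 to 3 (adjusted p = 0.0531 to 0.0826).

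CCT is a double ring in which every subunit is present in equal number, and of 7 tested subunits 1 passed. Cct8 (chromosome 16, 87483326 to 87495873, minus strand) had 29979.9, 33018, 28932, 27910.3 and 28060.2 scaled counts in mutants and 24035, 17642, 27736, 26484 and 21391 in WT embryos. The groups did not overlap, though mutant 4 and WT 3 were close (log2 fold change 0.35, SE 0.11, adjusted p = 0.0425). After GC correction the value was 0.16 (adjusted p = 0.0759), in edgeR the adjusted p was 0.052, and the call was lost without any 1 of 7 libraries, all but WT 3, WT 4 and mutant 4 (adjusted p = 0.0596 to 0.107). Exons of Cct8 overlap those of Usp16 on the opposite strand, which was higher in mutants (1894 to 2895 scaled counts, against 984 to 1486 in WT embryos; 0.92, adjusted p = 0.000607; after GC correction 0.47, adjusted p = 0.0755).

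The other 6 subunits did not pass. Cct4 had 18758 to 20715 scaled counts in mutants and 11534 to 18813 in WT embryos (log2 fold change 0.35, adjusted p = 0.0538; without WT 3 0.43, adjusted p = 0.022; without WT 4 0.41, adjusted p = 0.043; after GC correction 0.23, adjusted p = 0.0586; after GC and length correction 0.11, adjusted p = 0.345). Cct6a had 27264 to 34052 scaled counts in mutants and 20261 to 28440.1 in WT embryos (0.23, adjusted p = 0.126). WT 2 was the lowest embryo for Cct4, Cct6a and Cct8. Cct2, Cct3 and Cct5 had log2 fold changes of 0.02, 0.07 and 0.02, with unadjusted intervals that reached from −0.11 to 0.15, −0.07 to 0.21 and −0.11 to 0.16. Cct7 had a log2 fold change of −0.07 (interval −0.21 to 0.06; after GC correction −0.20, adjusted p = 0.0971). Cct2 turned to −0.21 after GC and length correction (adjusted p = 0.00734). The first subunit, Tcp1, lies outside the symbol rule and had 21576 to 24374 scaled counts in mutants and 15529 to 21656 in WT embryos (0.27, adjusted p = 0.0592; without WT 3 adjusted p = 0.0282; without WT 4 adjusted p = 0.0433; after GC correction −0.04). In a list of 16 chaperonin partners with Tcp1, 3 were higher and 1 lower (25%, against 25.1% of all genes tested). They were led by Txndc9, a regulator of CCT (0.57, SE 0.12, adjusted p = 0.00493), with Pdcl3 higher (0.35) and the tubulin cofactor Tbcc lower (−0.47). The third gene that was higher was the tubulin cofactor Tbca (0.44, adjusted p = 0.0415; edgeR adjusted p = 0.0563). All 4 of these calls were lost after GC correction, where Txndc9 was at 0.21, Pdcl3 at 0.20, Tbca at 0.26 and Tbcc at −0.20 (adjusted p = 0.133 to 0.182).

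**Figure D4:**
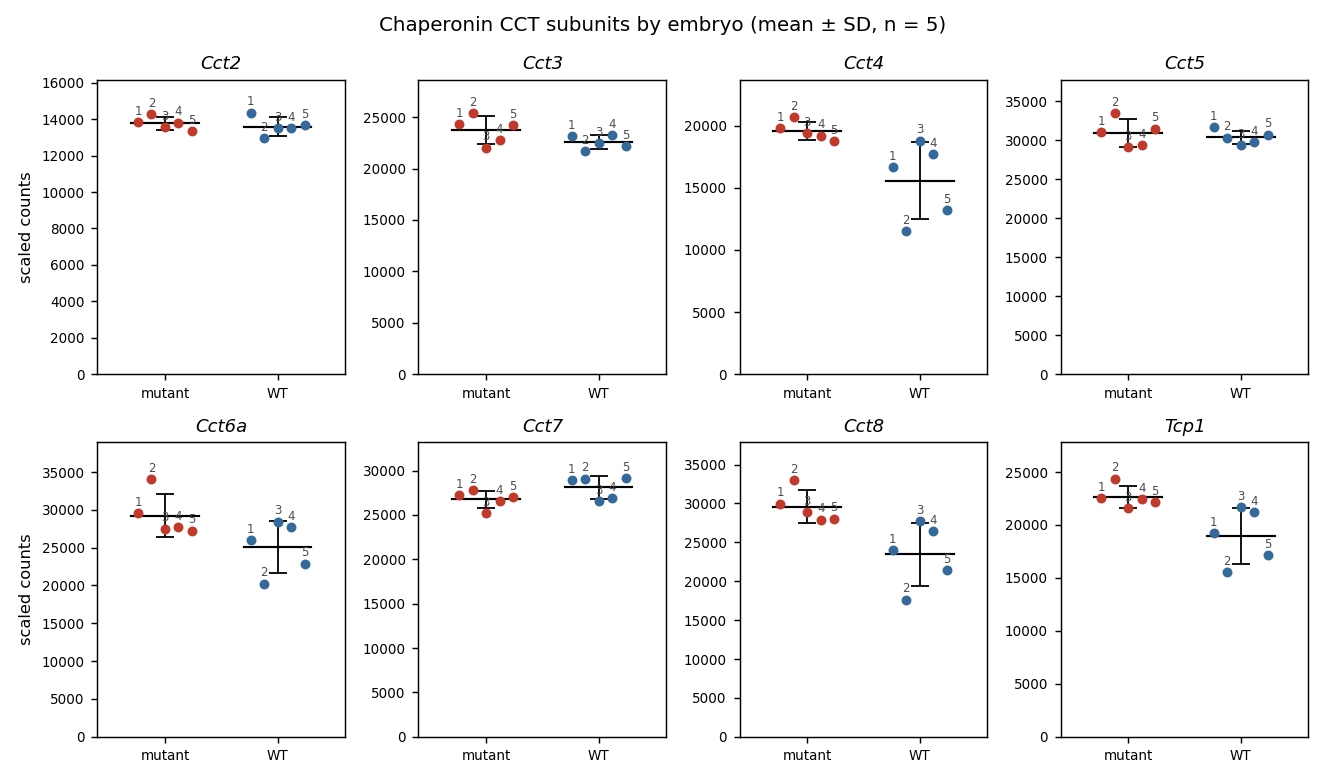
Scaled counts of 7 CCT subunits and Tcp1, which encodes the first subunit, in each embryo, mutants at the left (red) and WT at the right (blue), with the mean and SD (n = 5 each). WT embryos are spread more widely for Cct4, Cct6a, Cct8 and Tcp1 than for Cct2, Cct3 and Cct5, and WT 2 is the lowest WT embryo for Cct4, Cct6a, Cct8 and Tcp1.

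Of the partners outside the families, 11.1% of the HSP70 list and 18.5% of the HSP90 list passed, against 25.1% of all genes tested. Of 18 HSP70 co-chaperones and exchange factors, 2 were higher and none lower (3 higher and 1 lower after GC correction). Bag1 had 5063 to 5835 scaled counts in mutants and 4147 to 4643 in WT embryos (log2 fold change 0.33, SE 0.07, adjusted p = 0.00537), and Bag2 had 3097 to 3745 in mutants and 2468 to 2826 in WT embryos (0.34, SE 0.08, adjusted p = 0.00848). For both genes every mutant lay above every WT embryo. Of 27 HSP90 co-chaperones, 2 were higher and 3 lower. Ppid, a cyclophilin, was higher by 0.64 (adjusted p = 0.0135; after GC correction 0.36, adjusted p = 0.00402). Sugt1 was higher by 0.53 (adjusted p = 0.0462), a call lost after GC correction (0.24, adjusted p = 0.0736) and in edgeR (adjusted p = 0.0588). The genes that were lower were Unc45a, a chaperone of myosin (−0.64, SE 0.14, adjusted p = 0.00687; after GC correction −0.42, adjusted p = 0.0144), and the immunophilins Fkbp4, given above, and Fkbp5 (−0.54, SE 0.13, adjusted p = 0.0116). Of 3 tested heat shock factor genes, the HSF1-binding protein Hsbp1 was higher (0.36, adjusted p = 0.0269), a call lost without any 1 of 6 libraries, WT 2, WT 5, mutants 1 to 3 and mutant 5 (adjusted p = 0.0518 to 0.0688).

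**Figure D5:**
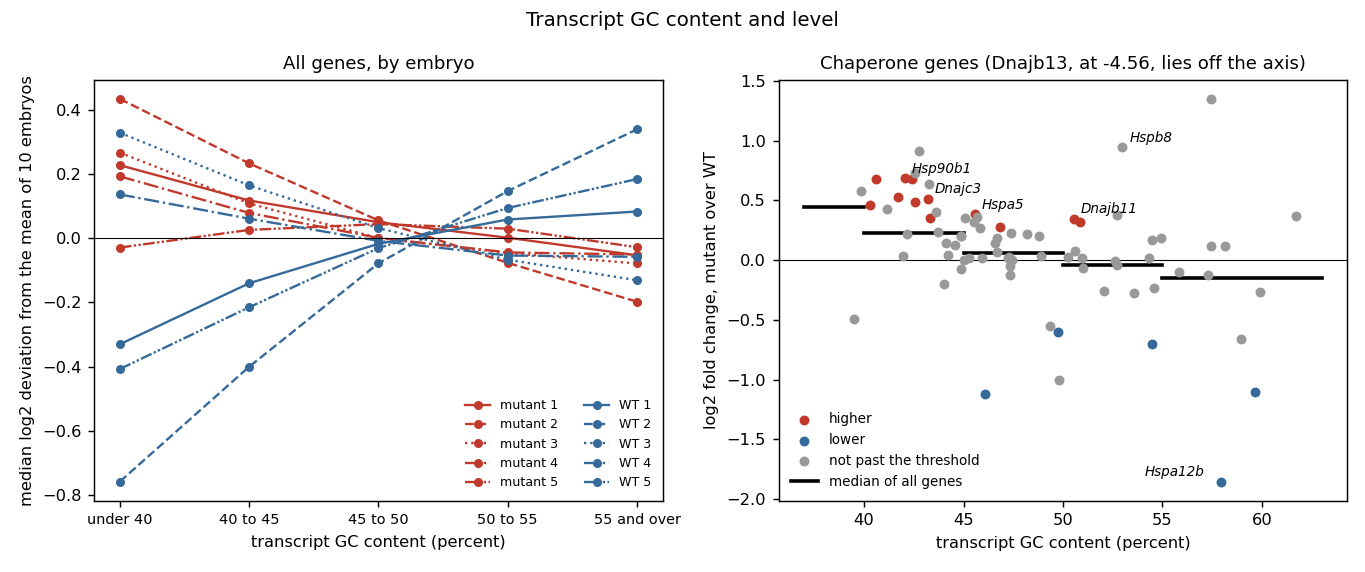
Left, median log2 deviation of genes from their mean over the 10 embryos, by transcript GC content, for each mutant (red) and WT embryo (blue). Right, log2 fold change (mutant over WT) of the chaperone genes against transcript GC content, with the median of all genes in each GC range as a bar. WT 2 lies lowest under 40% GC and highest at 55% and over. Most chaperone genes higher in mutants lie under 50% GC, as do most tested chaperone genes.

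The 9 members that were not tested had means under 10 scaled counts. They were the pseudogenes Cct3-ps1, Dnajc19-ps, Hspd1-ps4, Hspe1-ps3 and Hspe1-ps5 and the genes Hspa1l, Hspb9, Dnajc6 and Cct6b. Dnajc6, a partner of clathrin uncoating, had 0 to 14.4 scaled counts in mutants and 8.08 to 22.7 in WT embryos. The 4 tested pseudogenes did not pass (adjusted p = 0.133 to 0.75), and reads of a pseudogene such as Hspd1-ps3 (295 to 393 scaled counts in mutants and 154 to 317 in WT embryos) may come from its parent gene. Exons of 29 tested members overlap another gene, so that their counts are uncertain to that extent.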

How the data were processed

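RNA of whole embryos at embryonic day 7.5 was extracted with miRNeasy columns, amplified from 1.9 to 2 ng with SMART-Seq v4 (an unstranded kit, 12 cycles) and made into libraries with KAPA Hyper Prep, per the labels' protocols. Per the submitters' processing notes, the tools were cutadapt 1.6, STAR 2.5.0a, HTSeq 0.5.3 and DESeq, and the build mm10. The deposited values are a signal in scaled counts: counts per gene that the authors divided by 1 factor per library. Whole reads were recovered for 20006 of 20006 genes (within 0.01 reads), which gives the depth; 3 reads equal 2.51 to 3.41 scaled counts. Columns were matched to embryos by name and labels.

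Genes with a mean of at least 10 scaled counts (15429) were tested with limma 3.58.1 (intensity trend, R 4.3.3) on log2(scaled count + 1). The added 1 shrinks fold changes of low genes. Where embryos are uneven, folds in limma can exceed those in edgeR and DESeq2, as for Dnajb13. P-values were adjusted over all 15429 genes by Benjamini-Hochberg. Intervals are unadjusted at 95%. edgeR 4.0.16 and DESeq2 1.42.0 on the recovered reads were alternatives. GC correction removed each library's trend of log2 values over transcript GC content (a value for 99.7% of genes, GENCODE M21, which matched 19935 genes); it was added after seeing the data. The limma script was tested on simulated data. The chaperone genes and lists were chosen with earlier results of these data known. Named genes were, per family, up to 5 called genes with the smallest adjusted p, the highest per kilobase, called genes against the family's majority, a set of core chaperones, and up to 3 called genes per list. Genes named beyond that rule (Dnajb9, Hspa13, Dnajc10, Dnajc21, Dnaja4, Hspb8, Hspa14, Tcp1, Dnajc6, exon-overlap partners and further list genes) were chosen after their values were seen. P-values weigh the difference between the groups against the spread between these embryos and take the embryos as independent. The labels do not say whether embryos came from separate litters, so this could not be checked. Protein sequences were not analysed here.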

Additional observations from a re-analysis of the deposited data

Results flagged for a closer look

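Of 140 groups of 5 embryos checked (the named genes, mutants and WT apart), 13 held 1 embryo far from the other 4 by Dixon's criterion, which flags about 1 group in 20 by chance. The library labelled mutant 4 stood apart from the other mutants for 6 genes. It was high for Dnajb13 (24.3 scaled counts, against 0 to 0.944 in the other mutants), Hspa12b (202, against 28.7 to 44.8), Hspb1 (4007, against 725 to 1180) and the heart gene Myl7 (106, against 15.1 to 29.7). It was low for Dnajb11 (5869, against 6535 to 6612) and Bag1 (5063, against 5654 to 5835). Mutant 1 was high for Hspa1a (209.5 scaled counts, against 16.1 to 35.8 in the other mutants) and Hspa1b (400.1, against 101 to 181), and low for Dnajc3 (4185, against 4971 to 5151). Mutant 2 was high for Hsp90aa1 (49029 scaled counts, against 40376 to 42791), and mutant 3 for the immediate early gene Klf6 (5054, against 3881 to 4193). Among WT embryos, WT 2 was high for Hspa1a (115 scaled counts, against 35.9 to 55.6 in the other WT embryos) and WT 3 for Pmpcb (1712, against 1454 to 1526).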

How the results depend on the processing

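The results were computed under 25 alternatives. Of the 18 called chaperone genes, 8 kept their direction and side of the threshold in every one; of 447 values, 355 did so, 91 missed the threshold and 1 changed sign (Dnajc19, −0.019 after GC and length correction). For 24 chaperone genes that were not called (with Dnajc21, without Hspa14), 566 of 599 values stayed so and 31 passed the threshold. Cct2 (−0.21, adjusted p = 0.00734) and Dnajc8 (−0.31, adjusted p = 0.0111) turned after GC and length correction. The cause was not tested. Hspa14 passed in DESeq2 (adjusted p = 0.0266), after GC and length correction (adjusted p = 0.0448) and without mutant 4 (adjusted p = 0.0256). Leaving out 1 embryo at a time gave 2505 to 4535 called genes in all, against 3877, with 7 to 16 chaperone genes higher, against 12, and 4 to 6 lower, against 6. Sample weights gave 19 chaperone genes higher. A minimum mean of 50 scaled counts left 3 lower, where fewer genes were tested, and so did leaving out WT 2 and WT 3 together, where fewer embryos were. Endoplasmic reticulum members higher were 5 to 7 on leaving out 1 embryo, against 6, and 4 (GC correction without mutant 4) to 8 (sample weights) over all 25 alternatives. In the list of other endoplasmic reticulum genes, 9 were higher, 14 after GC correction, 15 after GC and length correction and 15 after GC correction without mutant 4; leaving out 1 embryo gave 8 to 11. The log2 ratio of summed Hspa1a and Hspa1b was 0.213, and −0.436 to 0.428 on leaving out 1 embryo. Embryos that share a replicate number did not vary together across genes (correlations of deviations −0.079 to 0.079). These values cannot tell whether the embryos were collected in pairs, which the labels do not state. With the replicate block, 3253 genes passed, 1436 higher and 1817 lower; 9 chaperone genes were higher and 4 lower, and Cct8, Dnajb5, Dnajb6, Dnajc28, Hspb2 and Hspd1 missed the threshold (adjusted p = 0.0567 to 0.0805), while Dnaja4 passed as lower (adjusted p = 0.0345). Depth limits Dnajb13 (25 reads over the mutants), Dnajc28 (97) and Hspb2 (48).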
